A study of Mus musculus with 12 samples.

Results

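SWI/SNF is a family of chromatin remodelling complexes that use an ATPase motor, Smarca4 or Smarca2, to slide or evict nucleosomes. The motor is joined to a core of Smarcc and Smarcd subunits, with Smarce1 and Smarcb1 in the canonical BAF and PBAF forms, and the complex is completed in different ways: Arid1a or Arid1b with a Dpf subunit gives canonical BAF, Brd9 with Bicra or Bicral gives non-canonical BAF, which lacks Smarcb1 and Smarce1, and Pbrm1, Arid2, Brd7 and Phf10 give PBAF. In epithelial tumours the complexes are known as frequently mutated regulators of enhancer and promoter access, and PBRM1 carries the bromodomains with which PBAF reads acetylated histones.

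The 30 mouse genes described here encode SWI/SNF subunits and were taken by symbol from a table of 78317 genes, in which each symbol had 1 gene identifier. 4 of them belong to PBAF alone (Pbrm1, ENSMUSG00000042323; Arid2, ENSMUSG00000033237; Brd7, ENSMUSG00000031660; Phf10, ENSMUSG00000023883) and 26 belong to the core, the ATPase module or the other 2 forms, or are partners of BAF. Messenger RNA was counted at the 3′ end of transcripts in 12 libraries of 4T1 cells, a line from a mouse mammary carcinoma of the triple-negative kind. The 4 groups, with n = 3 biological replicates each, were PBRM1 KO cells (Pbrm1 knockout) given 5 ng/ml TGFβ1 for 4 days, PBRM1 KO cells left untreated, control cells given the same TGFβ1, and control cells left untreated. TGFβ1 is a cytokine that acts through SMAD proteins and can make epithelial cells take on mesenchymal traits. The control cells are those the labels call control, and the library names mark them sgCt and the PBRM1 KO cells sgPB. The edited position in Pbrm1, and whether the PBRM1 KO cells were 1 clone or a pool, are not stated in the sources used here.

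Library totals ran from 9265693 to 11250850 deduplicated counts. Epithelial markers (Epcam, Cdh1 and 4 keratins) summed to 2130 to 3010 CPM (counts scaled to the library total) per library. The 6 leukocyte markers summed to at most 1.36 CPM, the 4 endothelial markers to at most 1.28 CPM and the 6 fibroblast markers to 14.5 to 68.4 CPM, and 0 markers were at 0 in every library. Both replicate 3 libraries with TGFβ1 stood apart. An axis over all tested genes was scaled so that untreated cells fell at 0 and, for each library, the opposite genotype's TGFβ1 replicates 1 and 2 fell at 1. On it they lay at 0.387 in PBRM1 KO cells and 0.303 in control cells, while the other 4 TGFβ1 libraries lay between 0.816 and 0.981 and untreated libraries between -0.0569 and 0.11. TGFβ1 results are therefore given with and without these libraries. The 2 libraries were singled out by a weak TGFβ1 response, so leaving them out tends to raise TGFβ1 effects and calls. For TGFβ1 averaged over genotype, 25.7% of all tested genes had an edgeR adjusted p below 0.05 with them and 41.4% without. Values without them are a description and no added support.

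Of the 30 members, 27 passed the filter on low counts. The 3 others were the neuronal paralogs Actl6b and Dpf3 and the lymphoid and neuronal factor Bcl11b, which had at most 3 counts in any library: Actl6b had 1 count over all 12 libraries, Dpf3 had 10 and Bcl11b had 5. Canonical BAF's Arid1a, non-canonical BAF's Brd9 and all 4 PBAF-only members were counted in every library, so transcripts of all 3 forms were present in each group. Among the tested members the coefficient of variation over the 12 libraries ran from 4.21% for Smarcd2 to 34.83% for Dpf1, with a median of 13.47%. A 3′ count does not scale with transcript length, so levels are compared between samples and not between genes. In bulk RNA, fewer cells expressing a gene and less RNA per cell cannot be told apart.

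Promoters are shown for Pbrm1, the edited gene, and for Bcl11a and Smarcb1, the members whose TGFβ1 and untreated libraries did not overlap in either genotype. These 3 were chosen after the values were seen. They are the sense strand from 250 bases before to 50 after the gene start in RefSeq on build GRCm38.p6, whereas the counts were made on build mm39. Capitals mark a match to the SMAD box CAGAC, the AP-1 site TGANTCA or the E-box CAGGTG, searched on both strands.
Pbrm1 (chr14:31018888-31019187, plus strand): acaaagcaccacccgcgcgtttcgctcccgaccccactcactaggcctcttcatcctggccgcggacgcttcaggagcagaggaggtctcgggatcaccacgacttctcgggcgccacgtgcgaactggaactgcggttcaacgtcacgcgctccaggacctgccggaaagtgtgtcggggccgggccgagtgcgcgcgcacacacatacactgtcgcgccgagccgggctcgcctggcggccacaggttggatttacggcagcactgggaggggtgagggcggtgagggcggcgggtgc
Bcl11a (chr11:24080445-24080744, plus strand): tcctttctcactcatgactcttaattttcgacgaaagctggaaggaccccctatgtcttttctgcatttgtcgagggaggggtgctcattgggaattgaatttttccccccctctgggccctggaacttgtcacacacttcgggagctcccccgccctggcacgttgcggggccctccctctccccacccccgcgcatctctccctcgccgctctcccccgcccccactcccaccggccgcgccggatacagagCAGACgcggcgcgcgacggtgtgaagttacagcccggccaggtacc
Smarcb1 (chr10:75921565-75921864, minus strand): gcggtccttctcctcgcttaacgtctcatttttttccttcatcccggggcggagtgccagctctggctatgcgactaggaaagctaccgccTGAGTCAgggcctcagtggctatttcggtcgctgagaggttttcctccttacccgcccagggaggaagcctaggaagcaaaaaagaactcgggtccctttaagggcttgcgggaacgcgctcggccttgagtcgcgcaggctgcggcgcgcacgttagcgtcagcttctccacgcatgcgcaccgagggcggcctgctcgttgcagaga

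Bcl11a held 1 SMAD box, Smarcb1 held 1 AP-1 site and Pbrm1 held none of the 3 motifs. Promoters of 24 members were matched. Arid2, Bcl7a, Ss18, Smarce1, Bicra and Bicral had none, and Arid2, Bcl7a and Ss18 are among the members that rose with TGFβ1 below. At least 10 CpG dinucleotides stood in 22 of them (91.7%), against 43.9% of all 27025 promoters in the table. Their median GC content was 67.0%, against 52.67% for all. A SMAD box was found in 7 of 24 (29.2%), against 49.7% of all promoters, and an AP-1 site in 2 of 24 (8.33%), Smarcb1 and Smarca2, against 7.93%. The E-box stood in 1 of 24 (4.17%), Smarcd2, against 20.0%. The promoters compared were not matched for GC content. A match is a string of letters and not a measured binding site.

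The comparison of genotypes asks what loss of PBRM1 does to the transcripts of its own complex. Pbrm1 itself was the member with the lowest unadjusted p in both treatments. It was counted at 274, 233 and 222 CPM in PBRM1 KO libraries with TGFβ1, against 289.5, 292 and 276 CPM in control libraries with TGFβ1. Untreated, it was at 245, 207 and 222 CPM in PBRM1 KO libraries, against 328, 261 and 258 CPM in control libraries. The groups did not overlap in either treatment, and Pbrm1 was the 1 of 27 tested members (3.7%) of which this was true, against 1.92% of all tested genes that lay lower without overlap in both. The log2 fold change was -0.25 ± 0.10 (SE) with TGFβ1 (edgeR quasi-likelihood adjusted p = 0.511), -0.33 ± 0.10 untreated (adjusted p = 0.344) and -0.29 ± 0.07 averaged over treatment (95% interval -0.44 to -0.13, unadjusted p = 0.00159, adjusted p = 0.0691). Pbrm1 therefore did not pass after adjustment over 14034 genes. It passed for the average with the replicate block (adjusted p = 0.00746), with DESeq2 (0.0152) and with no filter on low counts (0.0309). Without both TGFβ1 replicate 3 libraries the average was -0.27 ± 0.08 (adjusted p = 0.084). A 3′ count need not read the edited position, so the values are no check of the edit or of the protein.

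The other 3 PBAF-only transcripts did not pass for genotype either. Arid2, the subunit that takes the place of Arid1a or Arid1b in PBAF, had 114, 95.5 and 83.6 CPM in PBRM1 KO libraries with TGFβ1, against 90.3, 92 and 80.2 CPM in control libraries with TGFβ1. Untreated, it had 82.0, 80.2 and 82.3 CPM in PBRM1 KO libraries, against 82.0, 71.6 and 70.8 CPM in control libraries. These groups overlapped in both treatments, and averaged over treatment Arid2 was at log2 0.14 ± 0.07 (95% interval -0.02 to 0.29, adjusted p = 0.462). Brd7, a bromodomain subunit, had 85.0, 84.3 and 81.3 CPM in PBRM1 KO libraries with TGFβ1, against 72.0, 78.1 and 75.0 CPM in control libraries with TGFβ1. Untreated, it had 93.2, 73.3 and 74.8 CPM in PBRM1 KO libraries, against 86.5, 69.5 and 74.0 CPM in control libraries. Brd7 was higher without overlap with TGFβ1 but overlapped untreated, and its average was 0.11 ± 0.07 (interval -0.05 to 0.26, adjusted p = 0.594). Phf10, a plant homeodomain finger subunit, had 104, 106 and 106 CPM in PBRM1 KO libraries with TGFβ1, against 123, 116 and 109 CPM in control libraries with TGFβ1. Untreated, it had 123, 131 and 107 CPM in PBRM1 KO libraries, against 161, 119 and 111 CPM in control libraries. It was lower without overlap with TGFβ1 and overlapped untreated, with an average of -0.13 ± 0.08 (interval -0.31 to 0.05, adjusted p = 0.559). The intervals place each of these 3 averages within 0.31 of 0 on the log2 scale, and a p that misses the threshold does not show that the transcripts were equal.

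**Figure D1:**
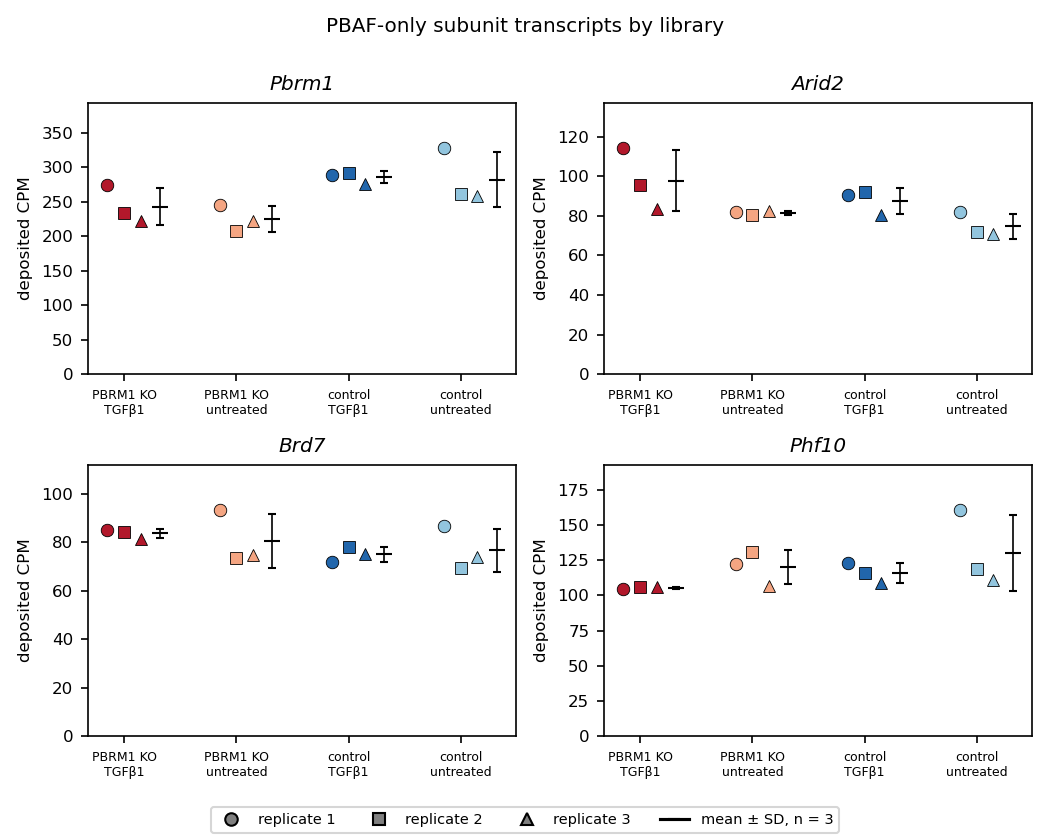
Deposited CPM (y axis) of the 4 PBAF-only transcripts in the 4 groups (x axis), with 1 point per library, shapes for replicate numbers and the mean ± SD beside them (n = 3). Pbrm1 lies at 207 to 274 CPM in the 6 PBRM1 KO libraries and at 258 to 328 CPM in the 6 control libraries, and separates within each treatment; Arid2, Brd7 and Phf10 overlap between genotypes in untreated cells.

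Across the whole set, 0 of 27 tested members passed for genotype with TGFβ1, untreated or averaged over treatment (edgeR adjusted p below 0.05), where 0.271%, 0.278% and 1.96% of all tested genes passed. By direction, 0.0713% of all tested genes were higher and 0.2% lower with TGFβ1, 0.0428% and 0.235% untreated, and 0.684% and 1.28% on average. At an unadjusted p below 0.05 there were 1, 1 and 4 members (3.7%, 3.7% and 14.8%), against 8.53%, 7.61% and 13.3% of all tested genes. At an adjusted p below 0.05 DESeq2 called 0, 0 and 1 (0.0%, 0.0% and 3.7%), against 0.599%, 0.741% and 2.46% of all tested genes. The replicate block gave 0 of 27 for genotype with TGFβ1, against 1.13% of all tested genes. With TGFβ1, 2 members were higher without overlap (7.41%, against 6.27% of all tested genes) and 3 lower (11.1%, against 5.64%). Untreated, 0 were higher without overlap (against 6.94% of all tested genes) and 1 lower (3.7%, against 8.74%), and 0 were higher in both treatments (against 1.4%). The 4 members with an unadjusted p below 0.05 for the average were Pbrm1 and Bcl11a, both lower in PBRM1 KO cells, and Smarcc2 and Arid1a, both higher. The median difference of the members averaged over treatment was log2 0.04, with 18 above 0 and 9 below, and that of all tested genes was -0.00. The median size regardless of sign was 0.12 for the members and 0.10 for all tested genes.

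Neither the ATPases nor the ARID subunits passed for genotype. Smarca4 (BRG1) had 160.4, 141 and 120.2 CPM in PBRM1 KO libraries with TGFβ1, against 120, 135 and 115 CPM in control libraries with TGFβ1. Untreated, it had 141, 120.5 and 126 CPM in PBRM1 KO libraries, against 132, 115 and 112 CPM in control libraries. All groups overlapped, and the average was log2 0.14 ± 0.08 (interval -0.02 to 0.30, adjusted p = 0.457). Smarca2 (BRM), the alternative motor, had 50.6, 45.2 and 37.8 CPM in PBRM1 KO libraries with TGFβ1, against 43.1, 46.5 and 30.9 CPM in control libraries with TGFβ1. Untreated, it had 41.8, 33.6 and 33.8 CPM in PBRM1 KO libraries, against 39.7, 28.6 and 33.6 CPM in control libraries. It overlapped throughout as well, at 0.12 ± 0.11 (interval -0.13 to 0.36, adjusted p = 0.726).

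Arid1a, the DNA-binding subunit of canonical BAF, had 233, 226 and 202 CPM in PBRM1 KO libraries with TGFβ1, against 187, 214 and 187 CPM in control libraries with TGFβ1. Untreated, it had 200.5, 195 and 209.5 CPM in PBRM1 KO libraries, against 212, 173 and 166 CPM in control libraries. The average was log2 0.15 ± 0.07 (interval 0.00 to 0.29, unadjusted p = 0.0489, adjusted p = 0.373), and the groups overlapped in both treatments. Its paralog Arid1b had 36.3, 36.4 and 28.1 CPM in PBRM1 KO libraries with TGFβ1, against 31.2, 30.9 and 27.4 CPM in control libraries with TGFβ1. Untreated, Arid1b had 28.0, 29.2 and 28.9 CPM in PBRM1 KO libraries, against 32.7, 22.8 and 24.2 CPM in control libraries. Overlap was seen in both treatments here too, with an average of 0.14 ± 0.09 (interval -0.06 to 0.34, adjusted p = 0.592).

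Brd9, the bromodomain subunit of non-canonical BAF, had 19.1, 18.1 and 17.2 CPM in PBRM1 KO libraries with TGFβ1, against 13.8, 14.6 and 17.7 CPM in control libraries with TGFβ1. Untreated, Brd9 had 19.5, 19.1 and 21.0 CPM in PBRM1 KO libraries, against 19.0, 19.4 and 16.7 CPM in control libraries. It was at log2 0.17 ± 0.08 averaged over treatment (interval -0.01 to 0.34, adjusted p = 0.411) and overlapped in both treatments. Bicral, a scaffold of the same form, averaged 9.96 ± 0.81 CPM in PBRM1 KO libraries with TGFβ1 and 12 ± 1.41 CPM in control libraries with TGFβ1 (SD, n = 3 each). Those 2 groups did not overlap, at a log2 fold change of -0.28 ± 0.13 (adjusted p = 0.587), and the average over treatment was -0.17 ± 0.09 (adjusted p = 0.475). Bicra, its paralog, was at -0.00 ± 0.12 averaged over treatment (interval -0.27 to 0.27).

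Bcl11a is a zinc finger transcription factor that co-purifies with BAF, and it had the largest average genotype difference of the tested members. It had 15.9, 18.3 and 11.2 CPM in PBRM1 KO libraries with TGFβ1, against 17.5, 20.5 and 17.2 CPM in control libraries with TGFβ1. Untreated, it had 9.87, 9.83 and 7.58 CPM in PBRM1 KO libraries, against 13.5, 12.9 and 9.04 CPM in control libraries. The groups overlapped in both treatments, and the average was log2 -0.34 ± 0.13 (interval -0.62 to -0.05, unadjusted p = 0.0235, adjusted p = 0.275). With the replicate block Bcl11a passed beside Pbrm1. Smarcc2, a scaffold of the core, was at 117 ± 21.8 CPM in PBRM1 KO libraries with TGFβ1, against 97.1 ± 15.7 CPM in control libraries with TGFβ1. Untreated, Smarcc2 was at 101 ± 5.79 CPM in PBRM1 KO libraries, against 90.2 ± 7.51 CPM in control libraries, and its average was 0.20 ± 0.09 (unadjusted p = 0.0442, adjusted p = 0.359). Smarcb1 was higher without overlap with TGFβ1, at 0.12 ± 0.07 (adjusted p = 0.696), and overlapped untreated.

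**Figure D2:**
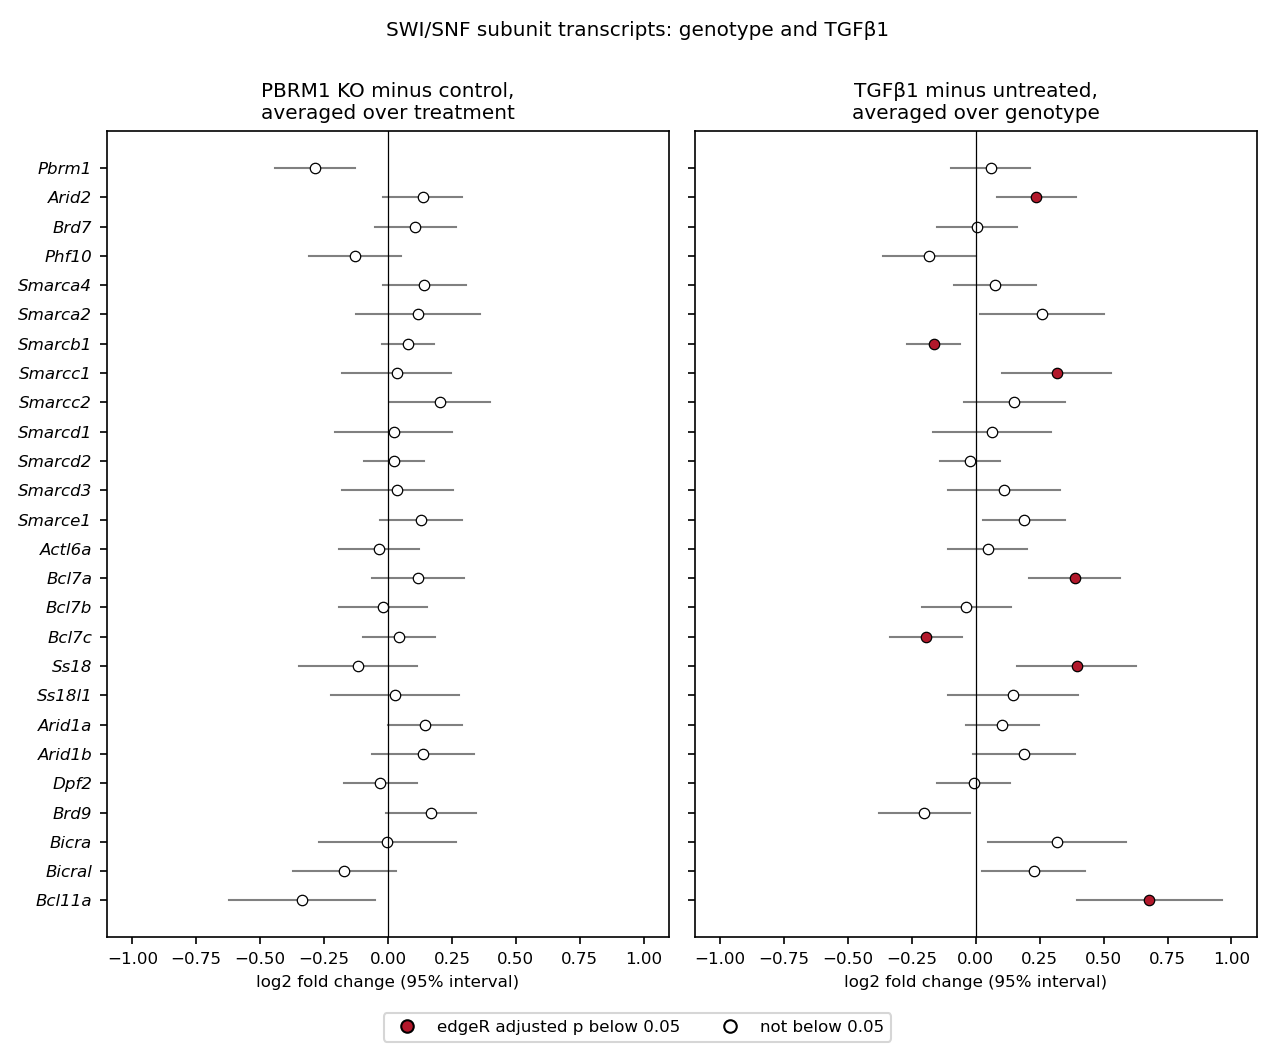
Log2 fold change (x axis) with its 95% interval for 26 tested members (y axis): PBRM1 KO minus control averaged over treatment on the left, TGFβ1 minus untreated averaged over genotype on the right; filled points have an edgeR adjusted p below 0.05. Dpf1 is left out for its low counts. On the left 0 points are filled and Bcl11a (-0.34) and Pbrm1 (-0.29) lie farthest from 0; on the right 7 are filled, from Smarcb1 and Bcl7c below 0 to Bcl11a at 0.68.

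Between TGFβ1 and untreated libraries, 7 of 27 tested members differed when averaged over genotype (edgeR adjusted p below 0.05). Bcl11a, Bcl7a, Ss18, Smarcc1 and Arid2 rose, by log2 0.24 to 0.68, and Smarcb1 and Bcl7c fell by 0.17 and 0.20. These 7 are 25.9% of the tested members, and 25.7% of all tested genes passed, 15.1% higher and 10.6% lower, so the share was close to the background. The members' median was log2 0.10, with 19 above 0 and 8 below, against -0.00 for all tested genes, and their median size regardless of sign was 0.18, as was that of all tested genes. In PBRM1 KO cells alone 3 of 27 passed (11.1%, against 11.3% of all tested genes, 7.63% higher and 3.71% lower): Bcl11a and Bcl7a rose and Dpf1 fell. With the replicate block this count was 5 (18.5%, against 19.9% of all tested genes), with Ss18 and Smarcc1 added. In control cells alone 1 of 27 passed (3.7%, against 8.82% of all tested genes, 5.91% higher and 2.91% lower), which was Bcl11a. At an unadjusted p below 0.05 there were 14 members for the average (51.9%), 6 in PBRM1 KO cells (22.2%) and 8 in control cells (29.6%). Of all tested genes these shares were 38.1%, 27.1% and 24.5%. In PBRM1 KO cells 3 members were higher without overlap with TGFβ1 (11.1%, against 16.1% of all tested genes) and 4 lower (14.8%, against 13.7%), and in control cells 5 were higher (18.5%, against 14.0%) and 2 lower (7.41%, against 12.2%).

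Both TGFβ1 replicate 3 libraries, which were singled out by their weak TGFβ1 response, bear on these counts. Without them 14 of 27 members (51.9%) passed for the average, against 41.4% of all tested genes, 8 (29.6%) in PBRM1 KO cells, against 27.9%, and 5 (18.5%) in control cells, against 23.9%. For the average, Smarca2, Smarcc2, Smarce1, Arid1b and Bicra then joined the 5 that rose, and Brd9 and Dpf1 joined the 2 that fell. The 7 members were called on these same libraries, so the following distances from the mean of untreated control libraries are a description. In the 5 that rose, the median log2 distance was 0.52, 0.35 and 0.11 in PBRM1 KO replicates 1, 2 and 3 with TGFβ1, and 0.33, 0.40 and 0.23 in control replicates 1, 2 and 3 with TGFβ1. In the 2 that fell it was -0.15, -0.13 and -0.08 in the PBRM1 KO replicates and -0.18, -0.25 and -0.18 in the control replicates, where replicate 3 did not lie nearest 0. Epithelial and leukocyte marker sums in control cells did not overlap between TGFβ1 and untreated libraries, and the other sums that follow did. Fibroblast markers summed to 19.1 to 52.2 CPM in PBRM1 KO libraries with TGFβ1, against 14.5 to 23.5 CPM untreated, and to 19.4 to 68.4 CPM in control libraries with TGFβ1, against 20.5 to 27.3 CPM untreated. Epithelial markers summed to 2420 to 2960 CPM in PBRM1 KO libraries with TGFβ1, against 2700 to 2880 CPM untreated, and to 2130 to 2680 CPM in control libraries with TGFβ1, against 2890 to 3010 CPM untreated. Leukocyte markers summed to 0.179 to 1.13 CPM in PBRM1 KO libraries with TGFβ1, against 0.0925 to 0.364 CPM untreated, and to 0.54 to 1.36 CPM in control libraries with TGFβ1, against 0.184 to 0.426 CPM untreated. Their part in the TGFβ1 results was not tested.

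Bcl11a had the largest TGFβ1 change among the members that passed for the average. Its TGFβ1 libraries, at 11.2 to 18.3 CPM in PBRM1 KO cells and 17.2 to 20.5 CPM in control cells, all lay above the untreated libraries of the same genotype. It was the 1 member of 27 (3.7%) higher without overlap in both genotypes, as were 8.44% of all tested genes. The rise was log2 0.68 ± 0.13 on average (60.12% higher, adjusted p = 0.00243), 0.72 ± 0.19 in PBRM1 KO cells (adjusted p = 0.0273) and 0.64 ± 0.18 in control cells (adjusted p = 0.0481). Without both TGFβ1 replicate 3 libraries these were 0.78, 0.89 and 0.67, with adjusted p of 8.6e-05, 0.00112 and 0.00748. The average passed with each of the 12 libraries left out in turn (adjusted p of 0.000346 to 0.00877). The value for control cells passed in 3 of the 12 such fits, and not without any 1 of the 6 untreated libraries, PBRM1 KO TGFβ1 replicate 1 or control TGFβ1 replicate 1 or 2 (adjusted p of 0.0553 to 0.203), nor with RLE scaling (adjusted p = 0.0502). The value for PBRM1 KO cells passed in 7 and was lost without any 1 of the PBRM1 KO untreated libraries or PBRM1 KO TGFβ1 replicates 1 and 2 (adjusted p of 0.0606 to 0.147). With the replicate block, the value for PBRM1 KO cells was 0.715 ± 0.128 (edgeR adjusted p = 0.00164).

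Members of the ATPase module, which bind at the motor, moved in both directions. Bcl7a had 48.6, 52.1 and 45.1 CPM in PBRM1 KO libraries with TGFβ1, against 35.2, 38.3 and 34.0 CPM untreated. In control cells it had 35.4, 50.9 and 43.2 CPM with TGFβ1, against 36.2, 32.1 and 33.6 CPM untreated. The groups separated in PBRM1 KO cells and overlapped in control cells, where TGFβ1 replicate 1 lay among the untreated libraries. Bcl7a rose by log2 0.39 ± 0.08 on average (adjusted p = 0.00453) and by 0.43 ± 0.12 in PBRM1 KO cells (adjusted p = 0.0331), and was at 0.35 ± 0.12 in control cells (adjusted p = 0.0881). Its average passed in all 12 fits with 1 library left out, and was 0.40 without both TGFβ1 replicate 3 libraries (adjusted p = 0.00214). The value in PBRM1 KO cells was lost without any 1 of the PBRM1 KO untreated libraries, PBRM1 KO TGFβ1 replicates 1 and 2 or control untreated replicates 2 and 3 (adjusted p of 0.054 to 0.167). With the replicate block, the value in PBRM1 KO cells was 0.428 ± 0.105 (edgeR adjusted p = 0.0118).

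The paralog Bcl7c went the other way. It had 67.7, 67.4 and 75.3 CPM in PBRM1 KO libraries with TGFβ1, against 81.2, 83.2 and 74.1 CPM untreated, and 71.1, 62.9 and 68.3 CPM in control libraries with TGFβ1, against 74.3, 74.4 and 83.0 CPM untreated. Control libraries did not overlap, and PBRM1 KO replicates 3 crossed. The fall was log2 -0.20 ± 0.07 on average (adjusted p = 0.0423), and -0.24 when both TGFβ1 replicate 3 libraries were left out (adjusted p = 0.0117). It passed in 5 of the 12 fits with 1 library left out, and not without PBRM1 KO untreated replicate 1 or 2, PBRM1 KO TGFβ1 replicate 1 or 2, control untreated replicate 2 or 3, or control TGFβ1 replicate 2 (adjusted p of 0.0539 to 0.101), nor with no filter on low counts (adjusted p = 0.101). Bcl7b, the third paralog, was at -0.04 ± 0.08 (interval -0.21 to 0.14, adjusted p = 0.775).

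Ss18, the subunit fused to SSX in human synovial sarcoma, had 57.6, 50.3 and 36.5 CPM in PBRM1 KO libraries with TGFβ1, against 39.6, 34.9 and 32.5 CPM untreated. In control cells it had 59.8, 50.9 and 42.4 CPM with TGFβ1, against 41.8, 37.5 and 38.7 CPM untreated. The control libraries separated, and PBRM1 KO TGFβ1 replicate 3 lay among the untreated libraries. Ss18 rose by log2 0.39 ± 0.11 on average (adjusted p = 0.0166), in all 12 fits with 1 library left out, and by 0.53 without both TGFβ1 replicate 3 libraries (adjusted p = 6.6e-05). Ss18l1, its paralog, averaged 5.18 ± 0.24 CPM in PBRM1 KO libraries with TGFβ1, against 4.66 ± 0.83 CPM untreated, and 5.05 ± 0.55 CPM in control libraries with TGFβ1, against 4.55 ± 0.53 CPM untreated. It was at 0.15 ± 0.12 (adjusted p = 0.39). The actin-related Actl6a was at 0.05 ± 0.07 (interval -0.11 to 0.20), and ranged over 60.6 to 75.2 CPM in all libraries.

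Among the core members and those shared by canonical BAF and PBAF, Smarcc1 rose and Smarcb1 fell. Smarcc1, a scaffold on which the complex assembles, had 326, 269.5 and 226 CPM in PBRM1 KO libraries with TGFβ1, against 263, 188 and 201 CPM untreated. In control cells it had 267, 281 and 246 CPM with TGFβ1, against 242, 199.7 and 196 CPM untreated. The control libraries separated and the PBRM1 KO libraries overlapped. The rise was log2 0.32 ± 0.10 on average (adjusted p = 0.0319), and 0.39 when both TGFβ1 replicate 3 libraries were left out (adjusted p = 0.00357). It passed in 4 of the 12 fits with 1 library left out, and not without PBRM1 KO untreated replicate 2 or 3, control untreated replicate 2 or 3, or TGFβ1 replicate 1 or 2 of either genotype (adjusted p of 0.0633 to 0.0875).

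Smarcb1, the subunit lost in human rhabdoid tumours, had 157, 155 and 146 CPM in PBRM1 KO libraries with TGFβ1, against 168, 163 and 163 CPM untreated. In control cells it had 137, 143 and 138 CPM with TGFβ1, against 169, 158 and 155 CPM untreated. It was the 1 member of 27 (3.7%) lower without overlap in both genotypes, as were 6.31% of all tested genes. The fall was small, at log2 -0.17 ± 0.05 (adjusted p = 0.0217), and passed in all 12 fits with 1 library left out and without both TGFβ1 replicate 3 libraries (-0.16, adjusted p = 0.0341). With no filter on low counts it was -0.17 ± 0.08 and did not pass (adjusted p = 0.168).

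The others of this group did not pass for the average over all libraries. Smarcc2 was at log2 0.15 ± 0.09 (adjusted p = 0.245). Without both TGFβ1 replicate 3 libraries it passed, at 0.25 (adjusted p = 0.015). Smarce1, an HMG box subunit, averaged 106 ± 12.4 CPM in PBRM1 KO libraries with TGFβ1, against 94.2 ± 11.4 CPM untreated, and 98.5 ± 6.19 CPM in control libraries with TGFβ1, against 84.3 ± 7.09 CPM untreated. It was at 0.19 ± 0.07 (adjusted p = 0.0761), and leaving out both TGFβ1 replicate 3 libraries gave adjusted p = 0.0248. Of its 12 counts, 11 were fractional. Among the members that passed, Smarcc1 and Bcl7c had fractional counts in 7 libraries each, Ss18 in 5, and Bcl7a and Bcl11a in 1 each. How such reads were shared out is not stated in the sources used here. The Smarcd paralogs, which link the complex to transcription factors, did not pass. Smarcd1 was at 0.06 ± 0.11, Smarcd2 at -0.02 ± 0.06 and Smarcd3 at 0.11 ± 0.10, with adjusted p of 0.705, 0.798 and 0.462. Smarcd2, at 64.6 to 72.4 CPM over all 12 libraries, had an interval of -0.14 to 0.10.

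**Figure D3:**
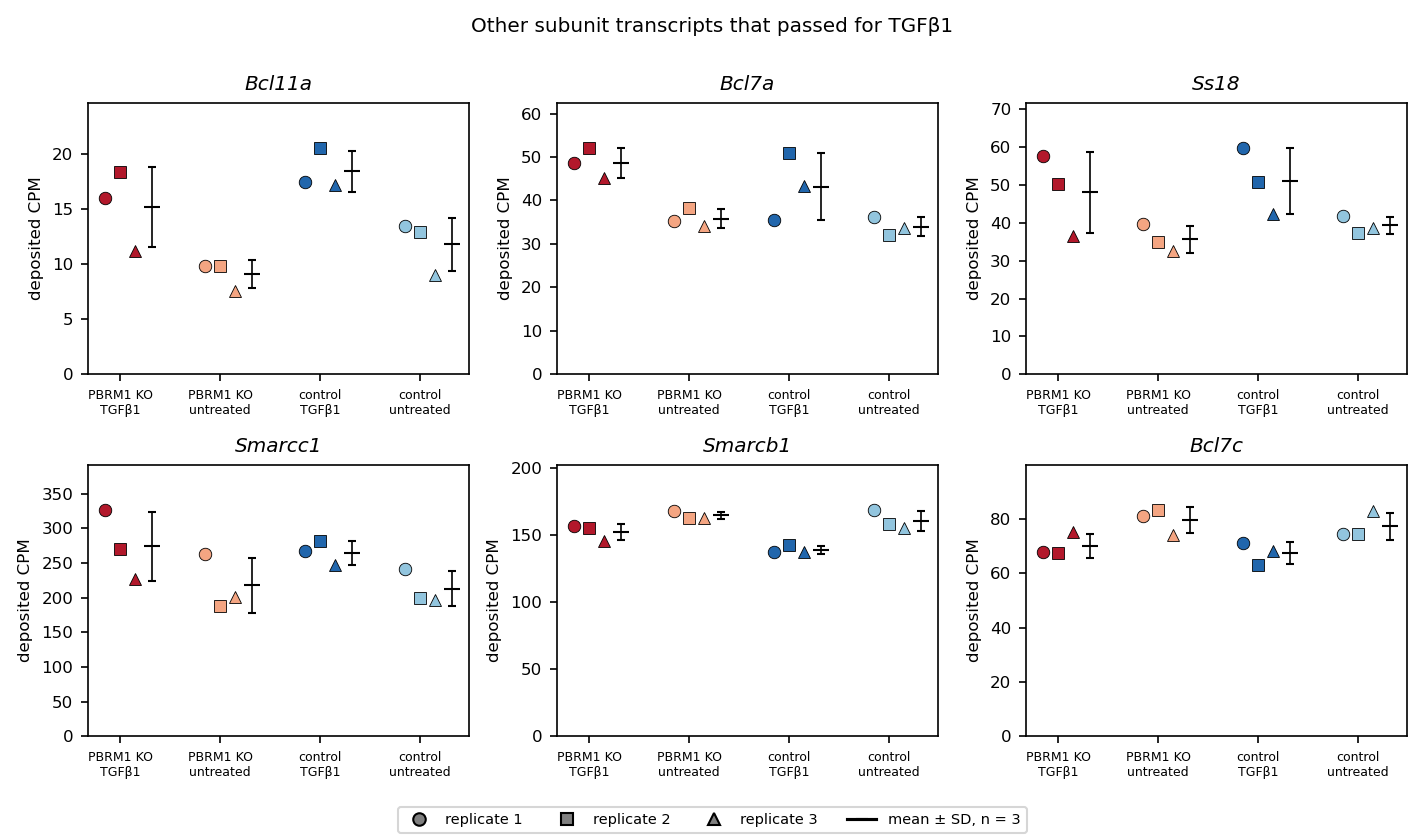
Deposited CPM (y axis, from 0) of the 6 members outside PBAF that passed for TGFβ1 averaged over genotype, in the 4 groups (x axis), with 1 point per library, shapes for replicate numbers and the mean ± SD beside them (n = 3). Bcl11a is higher and Smarcb1 lower in all TGFβ1 libraries than in the untreated libraries of the same genotype, and TGFβ1 replicate 3 (triangles) is the lowest of its group for Bcl11a, Ss18 and Smarcc1.

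Within PBAF, Arid2 was the 1 of 4 members that passed for TGFβ1. Its TGFβ1 libraries, at 83.6 to 114 CPM in PBRM1 KO cells, lay above the untreated ones, at 80.2 to 82.3 CPM. In control cells TGFβ1 libraries at 80.2 to 92 CPM overlapped untreated libraries at 70.8 to 82.0 CPM. Arid2 rose by log2 0.24 ± 0.07 on average (adjusted p = 0.0274) and by 0.31 without both TGFβ1 replicate 3 libraries (adjusted p = 0.00148). With 1 library left out it passed in 3 of 12 fits, and not without any PBRM1 KO untreated library, control untreated replicate 2 or 3, or TGFβ1 replicate 1 or 2 of either genotype (adjusted p of 0.0574 to 0.0787). Pbrm1 was at 0.06 ± 0.07 (interval -0.10 to 0.21, adjusted p = 0.596), Brd7 at 0.01 ± 0.07 (interval -0.15 to 0.16, adjusted p = 0.968) and Phf10 at -0.18 ± 0.08 (interval -0.36 to -0.00, adjusted p = 0.129). Phf10 was lower without overlap in PBRM1 KO cells and overlapped in control cells.

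Of the ATPases, Smarca4 was at log2 0.08 ± 0.08 with TGFβ1 (adjusted p = 0.497) and Smarca2 at 0.26 ± 0.11 (adjusted p = 0.11). Without both TGFβ1 replicate 3 libraries Smarca2 passed, at 0.38 (adjusted p = 0.00371), and Smarca4 did not, at 0.14 (adjusted p = 0.137). In canonical BAF, Arid1a was at 0.10 ± 0.07 (adjusted p = 0.272), Arid1b at 0.19 ± 0.09 (adjusted p = 0.148) and Dpf2, its finger subunit in most tissues, at -0.01 ± 0.07 (interval -0.15 to 0.13). In non-canonical BAF, Brd9 was at -0.20 ± 0.08 (adjusted p = 0.0882), Bicra at 0.32 ± 0.13 (adjusted p = 0.0771) and Bicral at 0.23 ± 0.09 (adjusted p = 0.0905). Brd9 was lower without overlap in PBRM1 KO cells, and Bicral was higher without overlap in control cells.

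Dpf1, a finger subunit of neuronal BAF, was near the lower limit of what could be tested, with 9 counts in its lowest library. It had 0.944, 0.896 and 1.25 CPM in PBRM1 KO libraries with TGFβ1, against 2.13, 1.46 and 2.68 CPM untreated. In control cells it had 1.62, 0.995 and 1.70 CPM with TGFβ1, against 1.63, 1.2 and 1.38 CPM untreated. The PBRM1 KO groups separated and the control groups did not. In PBRM1 KO cells it fell by 1.02 ± 0.30 on the log2 scale (adjusted p = 0.0471) and was at 0.03 ± 0.31 in control cells (adjusted p = 0.978). The difference between these effects was -1.04 ± 0.44 (unadjusted p = 0.032, adjusted p = 0.999). The fall passed with RLE scaling (edgeR adjusted p = 0.0457), no filter on low counts (0.033) and the replicate block (0.0117). Without both TGFβ1 replicate 3 libraries the log2 fold change was -1.195 (edgeR adjusted p = 0.0216). The fall did not pass with DESeq2 (adjusted p = 0.111) or in a fit of the 2 PBRM1 KO groups alone (0.0716). It passed in 4 of 12 fits with 1 library left out, and not without PBRM1 KO untreated replicate 1 or 3, PBRM1 KO TGFβ1 replicate 1 or 2, any control untreated library or control TGFβ1 replicate 1 (adjusted p of 0.0567 to 0.172).

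Whether TGFβ1 acted on the subunits differently in the 2 genotypes was tested as an interaction. With edgeR 0 of 27 members passed, as did 0 of 14034 genes (0.0%). Only Dpf1, 1 member (3.7%), had an unadjusted p below 0.05, against 1.77% of all tested genes. DESeq2 also called 0 members, and 0 of all tested genes. Apart from Dpf1, the member interactions lay between -0.21 for Bicral and 0.11 for Brd9 on the log2 scale. The width of the 95% interval differed between members, from -0.12 to 0.29 for Smarcb1 and -0.23 to 0.24 for Smarcd2 to -0.48 to 0.65 for Bcl11a.

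**Figure D4:**
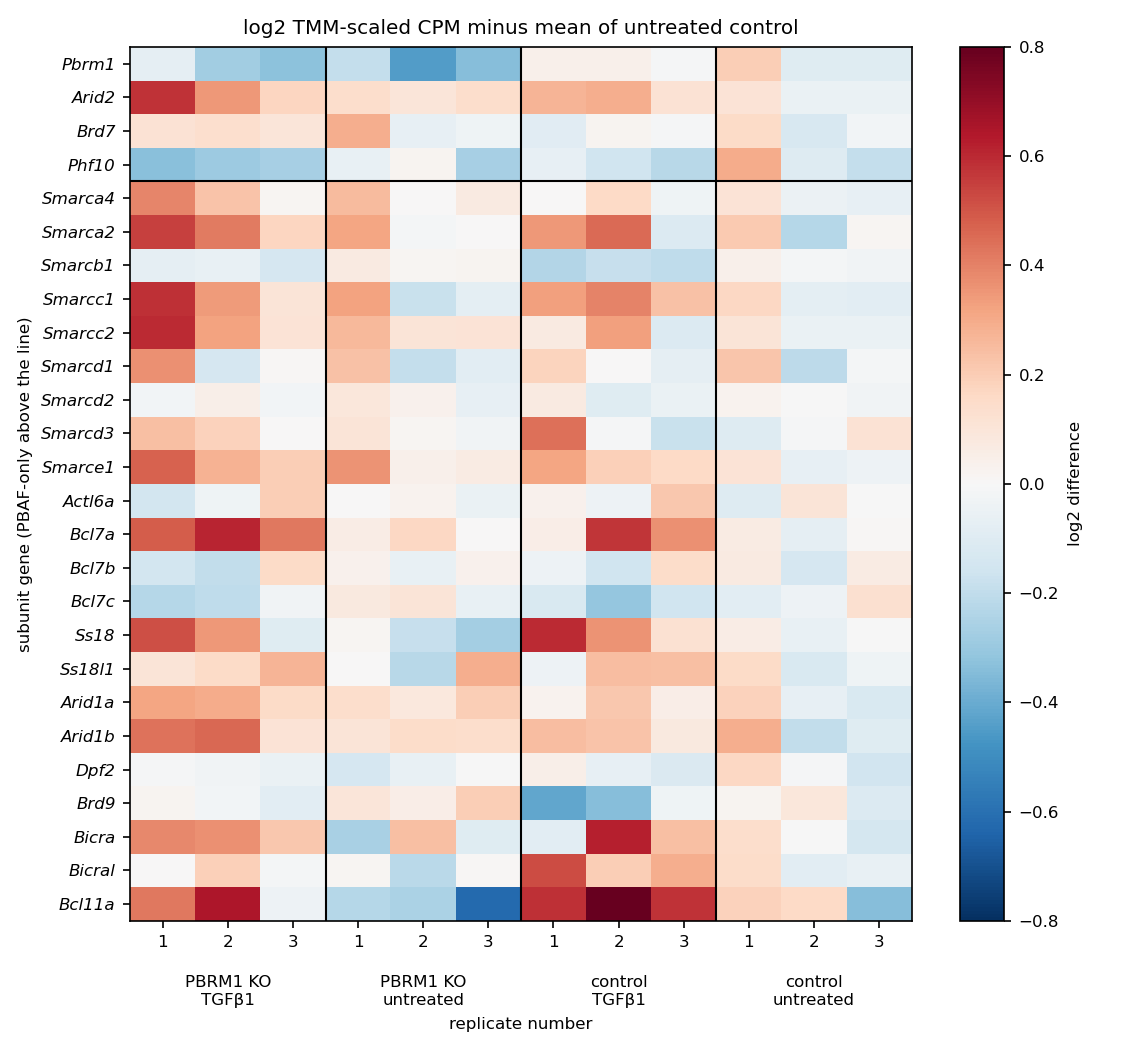
Log2 TMM-scaled CPM of 26 tested members (rows) in each of the 12 libraries (columns), minus the gene's mean in untreated control libraries; red is higher, blue is lower, and the line separates the 4 PBAF-only members. Dpf1 is left out for its low counts. Pbrm1 is below 0 in the 6 PBRM1 KO libraries, from -0.445 to -0.072. It is also slightly below 0 in control untreated replicates 2 and 3 (-0.097 and -0.099) and control TGFβ1 replicate 3 (-0.011). Bcl11a and Bcl7a are red in most TGFβ1 libraries, and the columns of TGFβ1 replicate 3 are paler than those of replicates 1 and 2 for several members.

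Ratios of 2 subunits do not depend on the library total. The 13 ratios below are log2 CPM ratios in each library, described with no test; 3 set a PBAF-only member beside a member of another form, 9 set paralogs beside each other, and Bcl11a over Arid1a sets a partner of BAF beside a BAF subunit. For PBAF against BAF, Arid2 over Arid1a was -1.28 to -1.03 in PBRM1 KO libraries with TGFβ1, against -1.35 to -1.28 untreated, and -1.23 to -1.05 in control libraries with TGFβ1, against -1.37 to -1.23 untreated. The mean was higher by 0.13 with TGFβ1 in each genotype, and the groups just missed each other. Between genotypes the same ratio differed by -0.02 with TGFβ1 and -0.02 untreated, and overlapped. Brd7 over Brd9 was higher with TGFβ1 by 0.20 in PBRM1 KO cells and 0.24 in control cells, with overlap in both. Phf10 over Dpf2 was 1.33 to 1.44 in PBRM1 KO libraries with TGFβ1, against 1.54 to 1.56 in control libraries with TGFβ1, which did not overlap, while untreated libraries did.

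Bcl11a over Arid1a was the 1 ratio of 13 without overlap in all 4 comparisons of 2 groups. No share over other gene pairs was computed. Bcl11a (log2 -0.34) and Arid1a (0.15) were 2 of the 4 members with an unadjusted p below 0.05 for genotype on average, in opposite directions. Each overlapped between genotypes in both treatments when taken alone. It was -4.17 to -3.62 in PBRM1 KO libraries with TGFβ1, against -3.44 to -3.38 in control libraries with TGFβ1. Untreated, it was -4.79 to -4.31 in PBRM1 KO libraries, against -4.20 to -3.75 in control libraries. The means differed by -0.47 and -0.51 between genotypes, and by 0.59 in PBRM1 KO cells and 0.56 in control cells for TGFβ1. Bcl7a over Bcl7b was higher without overlap with TGFβ1 in both genotypes, by 0.49 in PBRM1 KO cells and 0.35 in control cells. Smarca2 over Smarca4 was higher with TGFβ1 by 0.18 without overlap in PBRM1 KO cells, and by 0.19 with overlap in control cells. Smarcc2 over Smarcc1 was higher in PBRM1 KO than in control libraries with TGFβ1, by 0.22, and lower with TGFβ1 than untreated in control cells, by -0.22, both without overlap. The other 6 ratios (Arid1b over Arid1a, Smarcd2 and Smarcd3 over Smarcd1, Ss18l1 over Ss18, Bicral over Bicra and Bcl7c over Bcl7b) overlapped in all 4 comparisons.

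**Figure D5:**
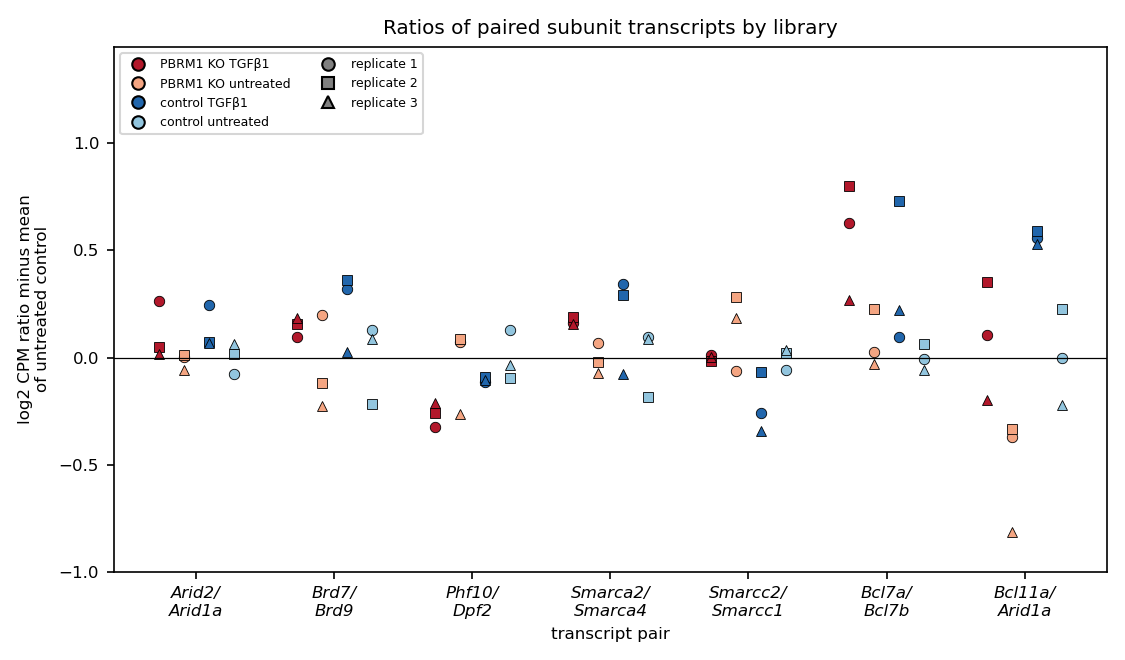
Log2 CPM ratio of 2 subunits minus its mean in untreated control libraries (y axis) for 7 of the 13 pairs (x axis), chosen after the values were seen, with 1 point per library, colours for groups and shapes for replicate numbers. For Bcl11a over Arid1a the 3 PBRM1 KO libraries lie below the 3 control libraries within each treatment, and the TGFβ1 libraries lie above the untreated ones within each genotype.

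Other chromatin regulators in the same fit gave a frame for these counts. Of 50 tested subunits of other ATP-dependent remodellers, 0 passed for genotype with TGFβ1 or untreated, and 1 passed for the average (2%, against 1.96% of all tested genes). This was Bptf, the largest NURF subunit, which reads methylated histone H3. It averaged 183 ± 16.3 CPM in PBRM1 KO libraries with TGFβ1, against 157 ± 4.48 CPM in control libraries with TGFβ1. Untreated, Bptf averaged 178 ± 15.2 CPM in PBRM1 KO libraries, against 141 ± 5.61 CPM in control libraries, and it rose by log2 0.27 ± 0.06 (adjusted p = 0.0357). Without both TGFβ1 replicate 3 libraries Bptf was at 0.29 ± 0.07 (adjusted p = 0.0338), again the 1 of 50 that passed (2%, against 2.83% of all tested genes). For TGFβ1 averaged over genotype 5 of the 50 rose and 5 fell (20%), and 11 rose and 9 fell (40%) without those libraries. Among the 5 that fell were the helicase Hells, by -0.44 ± 0.11, and the histone-fold protein Pole3, by -0.30 ± 0.08. The 5 that rose included Rsf1 at 0.42 ± 0.13 and Baz2a at 0.34 ± 0.10, both partners of ISWI motors.

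Polycomb group proteins repress chromatin and are known to be opposed by SWI/SNF. Of 31 tested Polycomb genes, 0 passed for genotype in either treatment or on average. Without both TGFβ1 replicate 3 libraries 2 of 31 passed for the average (6.45%, against 2.83% of all tested genes), Phc1 at 0.36 ± 0.09 and Cbx7 at -0.53 ± 0.12. For TGFβ1 averaged over genotype 3 of the 31 rose and 3 fell (19.4%), and 5 rose and 5 fell (32.3%) without those libraries. Pcgf3, a PRC1 subunit, rose by log2 0.43 ± 0.07 (adjusted p = 0.000497), with Cbx2 at 0.28 ± 0.07 and Phc1 at 0.36 ± 0.10. Cbx6 and Cbx7, chromodomain subunits of PRC1, fell by 0.41 ± 0.07 and 0.83 ± 0.18, and Phf19, a PRC2 partner, by 0.73 ± 0.19. Actb, the actin that SWI/SNF shares with the cytoskeleton, rose by 0.24 ± 0.07 (adjusted p = 0.0218) and had no genotype difference that passed (0.03 ± 0.07, adjusted p = 0.911). Shares of 20% and 19.4% stand beside 25.9% of the tested SWI/SNF members and 25.7% of all tested genes, or 40%, 32.3%, 51.9% and 41.4% without both TGFβ1 replicate 3 libraries.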

How the data were processed

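Per the labels' protocols, cDNA primed on poly(A) was tagmented, read stranded and single-end towards the 3′ end, and its duplicates were removed by molecular identifier. The submitters' processing notes name build mm39, with Subread 2.1.1, featureCounts, STAR 2.7.11, fastp 0.24.0, edgeR 3.38.4 and SAMtools 1.22.1, and no settings or annotation release are stated in the sources used here. The authors deposited expected counts, with 8.151% of values fractional, and the deposited CPM equalled count over library total within 4.85e-06. The 92 spike-in rows held 0 counts, and 21909 genes had no symbol.

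Counts were rounded to whole numbers, filtered with filterByExpr to 14034 genes and scaled by TMM. One mean per group was fitted on all 12 libraries with edgeR 4.0.16 (quasi-likelihood F test, not robust) in R 4.3.3, with Benjamini-Hochberg adjustment over all tested genes and a threshold of 0.05. The SE was computed as the log2 fold change divided by the root of F. The common BCV (variation between replicates) was 12.474%. Replicates correlated at 0.978 to 0.992 in log CPM, with a chi-square of 3.64 to 22.1 per gene, so none were copies. Comparisons with the same control libraries are not independent.

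The members, lists, ratios and averaged comparisons were chosen with earlier results of these data known. Full values are given for PBAF-only members, members that passed, ATPases, ARID paralogs and Brd9; from the other lists, genes that passed. The motifs were chosen after the values were seen, and promoters are RefSeq's. Library positions between untreated and TGFβ1 used log2 of CPM plus 1.

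Same-numbered libraries had deviations from their group means that correlated at 0.397, 0.416 and 0.725 (genotype with TGFβ1) and 0.2, 0.136 and 0.2 (TGFβ1 in PBRM1 KO cells), so these 2 comparisons were taken as paired from the data; the labels do not say what a number shares, and blocked calls had been seen by then. Alternatives were RLE scaling, no filter, DESeq2 1.42.0, the replicate block, only the groups compared, each library left out and both TGFβ1 replicate 3 libraries left out, which for the other remodeller and Polycomb lists was added after the data were seen. The tests were run on simulated data: the bound on false calls that DESeq2 had to meet there was loosened after a first run failed, and DESeq2 called more unchanged genes than its nominal rate.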

Additional observations from a re-analysis of the deposited data

How the results depend on the processing

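Fold changes were recomputed under each alternative for the member results that passed and for Pbrm1 for genotype, and 0 changed direction. Most were picked for passing in these same data, so this says little of the other members. Whether they passed was unchanged in 183 of these recomputed values, lost in 58 and gained in 3. For genotype averaged over treatment, where 0 members passed, 1 passed with no filter on low counts (3.33%, against 1.74% of all tested genes) and 1 with DESeq2 (3.7%, against 2.46%), which was Pbrm1 in both, and 2 with the replicate block, Pbrm1 and Bcl11a (7.41%, against 4.42%). For TGFβ1 in control cells, where 1 passed, the count was 0 with RLE scaling (against 8.76% of all tested genes), 2 with DESeq2 (7.41%, against 10.0%), 6 with the replicate block (22.2%, against 17.0%) and 5 without both TGFβ1 replicate 3 libraries (18.5%, against 23.9%). For TGFβ1 in PBRM1 KO cells, where 3 passed, it was 5 with the replicate block (18.5%, against 19.9%) and 8 without both of those libraries (29.6%, against 27.9%), and for TGFβ1 averaged over genotype, where 7 passed, it was 14 without them (51.9%, against 41.4%). With each library left out in turn the counts ran from 0 to 3 in control cells, 0 to 6 in PBRM1 KO cells and 4 to 9 for the average, and stayed at 0 for genotype and the interaction. Over all tested genes, the same TGFβ1 fits called 408 to 2398, 611 to 3067 and 2613 to 4779 genes, so the member counts moved with the whole fit. For genotype they called 3 to 60 genes with TGFβ1, 8 to 75 untreated and 128 to 284 on average, and for the interaction 0. Same-numbered libraries for TGFβ1 in control cells (0.256, -0.083 and 0.136) and genotype without TGFβ1 (0.148, 0.067 and 0.124) did not deviate together in every pair, so their blocked counts, 6 and 0, rest on a shared number alone. DESeq2 called more unchanged genes than its nominal rate on simulated data. The causes of these differences were not tested. Actl6b, Bcl11b and Dpf3 had too few counts to be tested, and among the tested members the lowest count in a library was 9, in Dpf1.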
